A study of Mus musculus with 2 samples.

Results

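The forkhead family of transcription factors was examined in fetal mouse ureters in which Rbpj, the DNA-binding effector of Notch signalling, was targeted in the mesenchyme. Members were chosen by name, as every non-control array probe whose gene name is Fox, a letter and a number, with or without a final letter. This gave 57 probes for 44 genes, of 39429 probes with 31870 gene or transcript names on the array. Of the 44 genes, 30 were well above background and could be compared, among 20989 features tested.

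The samples were whole dissected ureters of NMRI embryos at E18.5. The Rbpj-cKO embryos were Tbx18(cre/+);Rbpj(fl/fl), where the cre, expressed from the Tbx18 locus, acts in mesenchyme around the developing ureter and not in all ureteric cells. The controls were Rbpj(fl/?), so at least 1 Rbpj allele was floxed, the other allele is not stated, and no cre is listed. A male array held Rbpj-cKO RNA in red (AlexaFluor647) and control RNA in green (AlexaFluor555), and a female array held them the other way round. The number of embryos behind each RNA is not in the labels, so spread between the arrays may be technical, and sex and dye orientation cannot be told apart. In whole-organ RNA, fewer cells of a type and less RNA per cell cannot be told apart either.

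Forkhead proteins bind DNA through a winged-helix domain, and the letter in a name gives the subfamily. Some are set by signals from neighbouring cells, as Foxf1, Foxf2 and Foxl1 are by hedgehog ligands from epithelium in gut and other tubular organs. Others mark a lineage or tissue (Foxd1 the stromal progenitors of the kidney, Foxa1 endodermal epithelia and also urothelium). FoxO members such as Foxo1 and Foxo3 are held out of the nucleus by insulin signalling through Akt.

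In each of the 4 channels between 66.8% and 71.1% of probe spots exceeded background clearly, and none was saturated. All 8 urothelial, all 5 smooth muscle and all 7 ureteric mesenchyme markers were measured, and so were all 7 renal cortical stroma and all 4 nephron progenitor markers, so detection alone does not tell ureter from kidney. Rbpj had log2 ratios of Rbpj-cKO over control of -1.58 (male array) and -0.93 (female array) (limma adjusted p = 0.076). Over the alternative settings its adjusted p ranged from 0.0127 to 1, and it passed with an intensity trend (0.0127) and with all 4 channels required above background (0.0455). The labels do not place its probe inside or outside the deleted part, so Rbpj was not used to check them. Ratios of the arrays correlated at r = -0.18 across the 20989 features, so over all features the ratios of 1 array were not repeated on the other. The features share RNA samples and slide and are not independent replicates. The number of arrays limits the precision of every value.

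No forkhead gene passed the test. By limma with Benjamini-Hochberg adjustment over all features, 0 of 30 forkhead genes had an adjusted p under 0.05, where 0.129% of all features did (0.0858% lower and 0.0429% higher in Rbpj-cKO). At an unadjusted p under 0.05 there were 2 of 30, Foxd1 and Foxl1, where the share of all features was 3.37%. Foxd1 was the lowest member and Foxl1 the highest. The other 28 had mean log2 ratios between -0.30 (Foxs1) and 0.41 (Foxo6). The family's median log2 ratio was -0.01 (-0.04 male, -0.02 female), beside 0.01 over all features. With median centring in place of loess these medians were 0.045 and 0.042, so the sign of the family's median depended on the scaling. The median size of the log2 ratio, without its sign, was 0.14 for the forkhead genes and 0.10 for all features.

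**Figure D1:**
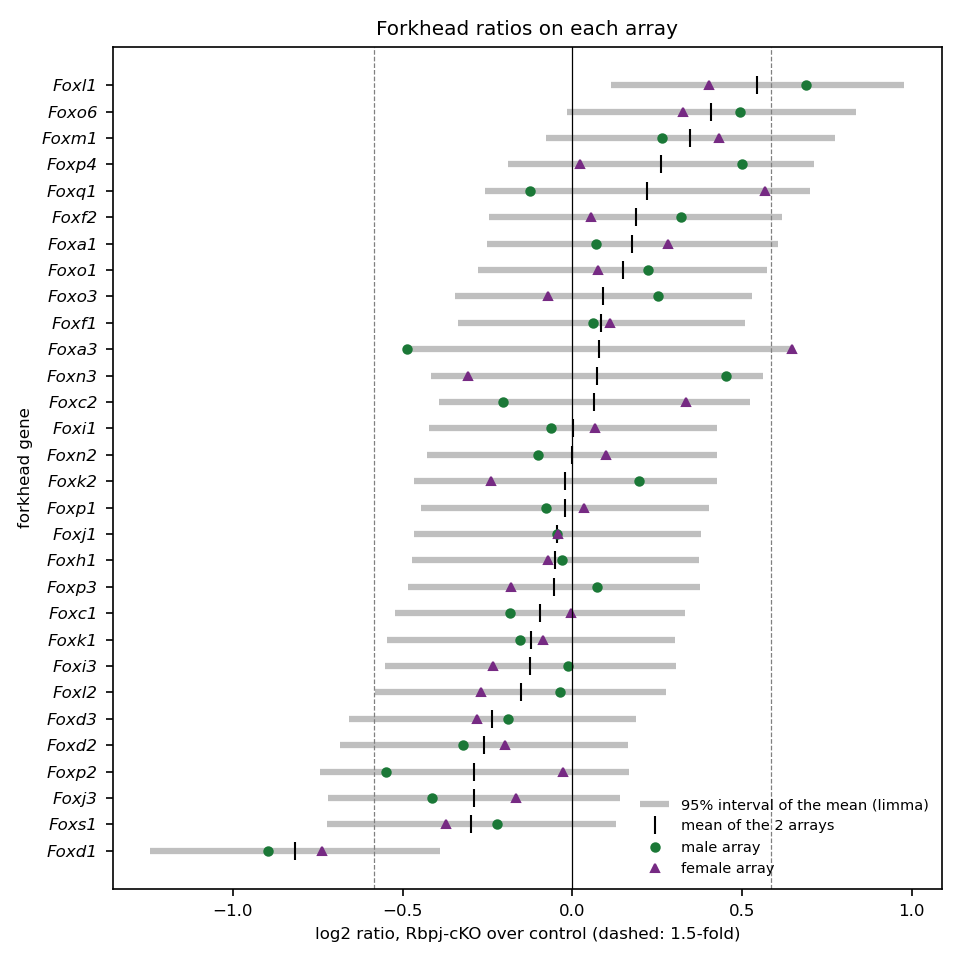
Log2 ratio of Rbpj-cKO over control (x axis) for the 30 measured forkhead genes (y axis), with the male array as circles, the female array as triangles, the mean as a bar and its limma 95% interval in grey. Foxd1 at -0.82 and Foxl1 at 0.55 lie at the ends, and theirs are the 2 intervals that do not include 0.

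Foxd1, which marks stromal progenitors of the kidney, had the lowest ratio in the family. Its normalised log2 intensity was 13.79 in male Rbpj-cKO and 14.69 in male control RNA, and 13.87 in female Rbpj-cKO and 14.61 in female control RNA. Both Rbpj-cKO channels were below both control channels, and the groups did not overlap, as for 27.4% of all features in either direction. The log2 ratios of the male and female array were -0.90 and -0.74, a mean of -0.82 (SD 0.11, 95% interval -1.24 to -0.39, n = 2), or 1.76-fold lower. The limma adjusted p was 0.335 over all features, so Foxd1 missed the threshold of 0.05. Its ratio was the 83rd lowest of 20989, which is within the lowest 0.395% of features. Foxd1 was the 1 forkhead gene at least 1.5-fold lower on both arrays, where 0.434% of all features were, and 0 of 30 were 1.5-fold higher on both, where 0.205% of all features were.

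The value of Foxd1 rests on 1 probe of 60 bases, at chr13:99126452-99126511 on mm9, plus strand. Whether it lies in an exon or a UTR was not analysed here. Runs of at least 12 of its bases also occurred in 15 probes of other features, and the longest run was 13 bases. The median count over the tested forkhead probes was 9, and whether the Foxd1 probe also reads other transcripts was not tested. The first 30 bases are shown because the largest ratio in the family was read by this probe alone, with no second probe to set beside it.
Foxd1 probe, first 30 bases: gaaataagtcgaaatttaccatttcctatt

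Markers of the cells in which Foxd1 is known did not share a direction. All 7 renal cortical stroma markers, Foxd1 among them, were measured. On both arrays 3 of them were higher and 3 lower, with a median log2 ratio of -0.19. Their summed normalised intensity was 413112 and 400112 in the male and female Rbpj-cKO channels, and 362590 and 359261 in the control channels. Among these, Ntn1, a laminin-related guidance factor, had a mean log2 ratio of -0.44, and Tcf21, a stromal basic helix-loop-helix factor, had 0.27. All 4 nephron progenitor markers were measured, with 1 higher and 1 lower on both arrays. Their summed intensity was 28580 and 34694 in the Rbpj-cKO and 31532 and 33334 in the control channels, male first. The nephron progenitor factor Six2 had 1.17 (adjusted p = 0.102) and its companion Cited1 had -0.59 (adjusted p = 0.933). The part of any other cell type in the ratio of Foxd1 was not tested.

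The other measured members of its subfamily had smaller ratios of the same sign. Foxd2, expressed in mesenchyme of the urogenital system, had log2 ratios of -0.32 and -0.20 on the male and female array (mean -0.26, 95% interval -0.69 to 0.17). Foxd3, a neural crest factor, had -0.19 and -0.28 (mean -0.23, 95% interval -0.66 to 0.19). Raw signals of Foxd3 were low, between 234 and 437, and its mean was -0.41 with Agilent's processed signals. Foxd4 was well above background in 1 of 4 channels and has no ratio. Each adjusted p was 1. For both genes Rbpj-cKO levels lay below control levels without overlap, where 27.4% of all features did not overlap.

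The hedgehog-related mesenchymal members were measured at all 3 genes, and their ratios were above 0 on both arrays. Foxl1, a mesenchymal factor best known beneath gut epithelium, had a normalised log2 intensity of 11.60 in male Rbpj-cKO and 10.91 in male control RNA. In female RNA it had 11.16 in Rbpj-cKO and 10.76 in control. Both Rbpj-cKO channels were above both control channels, where the groups did not overlap for 27.4% of all features. The Foxl1 log2 ratios were 0.69 (male) and 0.40 (female), with a mean of 0.55 (SD 0.20, 95% interval 0.11 to 0.98, n = 2). This 1.46-fold difference had a limma unadjusted p of 0.018 and an adjusted p of 1, and the mean was the 173rd highest of 20989. Foxf1 (Foxf1a in the files), needed for mesenchyme around endodermal tubes, had 0.06 and 0.11 (mean 0.09, 95% interval -0.34 to 0.51). Its relative Foxf2 had 0.32 and 0.06 (mean 0.19, 95% interval -0.24 to 0.62), from a dim probe with signals between 125 and 257 over the 4 channels.

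Foxl1 also had a single probe, at chr8:123654402-123654461 on mm9, plus strand. Of its 60 bases, runs of at least 12 also occurred in 9 probes of other features, the same as the median of 9 over the tested forkhead probes. The longest such run was 17 bases, longer than at every other tested forkhead probe but that of Foxl2 (20 bases). Whether the Foxl1 probe also reads other transcripts was not tested. The closing 30 bases are shown because the highest ratio in the family rests on this probe.
Foxl1 probe, last 30 bases: gtatgccgtgcatcacacctgtaatctcag

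The hedgehog pathway list gave no member past the test. All 16 genes were measured. On both arrays 4 were higher and 3 lower, where 4554 and 4132 of 20989 features were. The median log2 ratio was -0.05 (0.09 and -0.07 by array). The highest was the antagonist and target Hhip at 0.51 (0.70 and 0.31) and the lowest was the ligand Dhh at -0.34 (0.13 and -0.80). The target genes Gli1 and Ptch1 had 0.15 and 0.18, and the urothelial ligand Shh had -0.12, from -0.73 (male) and 0.49 (female).

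Some forkhead genes lie side by side in the genome. Foxf1, Foxc2 and Foxl1 have their probes within 43.8 kb on chromosome 8 (mm9), with mean log2 ratios of 0.09, 0.07 and 0.55 in that order. Foxq1, Foxf2 and Foxc1 lie within 250.3 kb on chromosome 13, with 0.22, 0.19 and -0.09. Differences between genes of a cluster were not tested. Foxc1 and Foxc2 act in mesoderm, vessel and kidney development. Foxc1 had -0.18 and 0.00, and Foxc2 had -0.20 and 0.33 (mean 0.07, 95% interval -0.39 to 0.52).

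**Figure D2:**
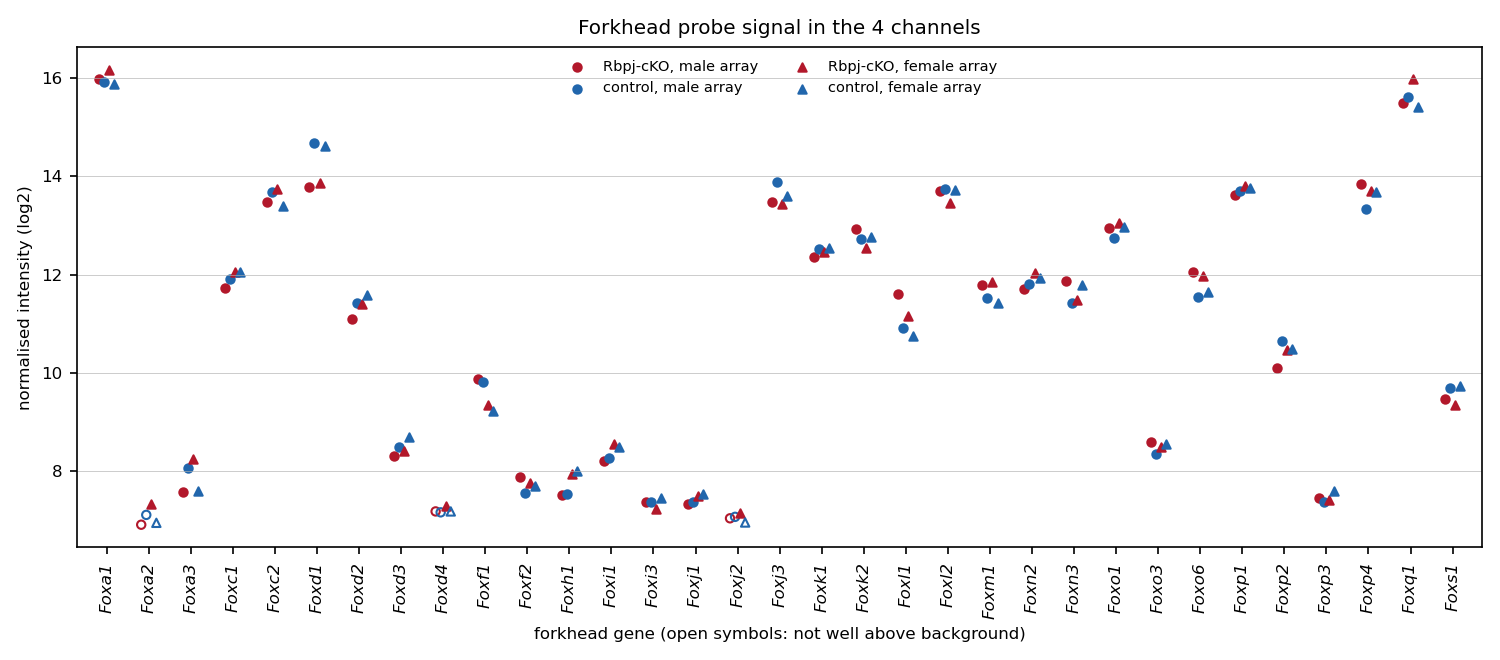
Normalised log2 intensity (y axis) of each of the 33 forkhead genes well above background in at least 1 channel (x axis) at its brightest probe, in Rbpj-cKO (red) and control (blue) RNA on the male (circles) and female (triangles) arrays; open symbols were not well above background. Foxd1 has both control points near 14.6 to 14.7 and both Rbpj-cKO points near 13.8 to 13.9, and intensities of different probes do not rank the genes.

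Among the epithelial members Foxa1 and Foxq1 gave strong signals, Foxa3 was dim and Foxa2 could not be compared. Foxa1, a pioneer factor that opens chromatin in endodermal epithelia, had raw signals of 86500 and 53300 in the Rbpj-cKO and 49200 and 77300 in the control channels, male first. On each array the red channel had the higher raw signal, so these signals do not compare the groups. The normalised log2 ratios of Foxa1 were 0.07 and 0.28 (mean 0.18, 95% interval -0.25 to 0.61). Foxq1, an epithelial factor, had -0.13 and 0.57 (mean 0.22, 95% interval -0.26 to 0.70), and its mean took the sign of the female array. Foxa3, a liver and gut factor, had -0.49 and 0.65 (mean 0.08), with Rbpj-cKO below control on the male and above it on the female array. Foxa2 was well above background in the female Rbpj-cKO channel at both of its probes and in the male control channel at 1 of them, and has no ratio here.

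Most urothelial markers had ratios above 0 beside these. Of 8 defining urothelial markers, all measured, 6 were higher and 0 lower on both arrays, where 4554 and 4132 of 20989 features were. Their median log2 ratio was 0.28. Their summed intensity was 790759 and 833632 in the Rbpj-cKO and 637292 and 707337 in the control channels, male first. The longer urothelial list had 26 of 26 genes measured, 16 higher and 0 lower on both arrays, none past the test and a median of 0.22. The basal keratin Krt5 was its highest member at 0.55 and Shh its lowest. Mesothelial genes, which share keratins with urothelium, had a median of 0.19 over 13 genes (0.50 and -0.21 by array, male first). Among them Rspo1, a Wnt agonist, was highest at 0.90 (2.17 and -0.37) and Lrrn4 lowest at -0.31 (1.01 and -1.63). The part of epithelial content in the Foxa1 and Foxq1 values was not tested.

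Foxm1, which drives genes of late cell division, had normalised log2 intensities of 11.78 and 11.84 in Rbpj-cKO and 11.51 and 11.41 in control RNA, male first. Foxm1 levels of the groups did not overlap, as for 27.4% of all features. Its log2 ratios were 0.26 and 0.43 (mean 0.35, SD 0.12, 95% interval -0.08 to 0.77, adjusted p = 1). A second, dimmer Foxm1 probe gave 0.06 and 0.35. Of 26 Foxm1-related cell division genes, 25 were measured and 12 were higher and 0 lower on both arrays, where 4554 and 4132 of 20989 features were. None passed, the median was 0.19 (0.11 and 0.27), and the topoisomerase Top2a was highest at 0.38 (0.11 and 0.64) and Lin54 lowest at -0.18.

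The FoxO members, nuclear targets of insulin and growth factor signalling, were measured at 3 of 4 genes. Foxo6 had normalised log2 intensities of 12.05 and 11.97 in Rbpj-cKO and 11.55 and 11.64 in control RNA, male first. Foxo6 levels of the groups did not overlap, as for 27.4% of all features. Its log2 ratios were 0.49 and 0.33 (mean 0.41, SD 0.12, 95% interval -0.02 to 0.84), with a limma unadjusted p of 0.0579 and an adjusted p of 1. Foxo1 had 0.22 and 0.08 (mean 0.15), and Foxo3 had 0.25 and -0.07 (mean 0.09). Foxo4 was not well above background at either of 2 probes, which share 52 of 60 bases.

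The 2 Foxo6 probes differed in signal as well as position. The tested probe at chr4:119939688-119939747 (mm9, minus strand) was well above background in all 4 channels, and the other, at chr4:119940278-119940337, in none. Raw signals were 2680 to 5180 at the first and 53.8 to 132 at the second. Runs of at least 12 bases of the measured probe also occurred in 26 probes of other features. This was the highest count over the tested forkhead probes, where the median was 9. Whether the measured probe also reads other transcripts was not tested. The opening 30 bases of both probes are shown since the second highest ratio in the family came from a gene with 1 of 2 probes measured.
Foxo6, measured probe, first 30 bases: gtgtcgaggccgtgtagagtgcattgtaca
Foxo6, probe not above background, first 30 bases: caccttgccattcccgcccgagggctggag

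Insulin pathway genes and known FoxO targets had a median log2 ratio close to that of all features. Of 31 genes 30 were measured, none passed at an adjusted or an unadjusted p under 0.05 by limma, and the median was -0.01. On both arrays 3 were higher and 6 lower, where 4554 and 4132 of 20989 features were, and the signs of the rest differed between the arrays. The insulin receptor substrate Irs2 was highest at 0.23 (0.61 and -0.16) and the binding protein Igfbp1 lowest at -0.21 (-0.53 and 0.11).

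The FoxP members, which act as dimers, were all measured. Foxp1 had log2 ratios of -0.08 and 0.04 (mean -0.02), and that sign turned with median centring in place of loess. Foxp2, known for neural and lung development, had -0.55 and -0.03 (mean -0.29, 95% interval -0.74 to 0.17). Foxp4 had 0.50 and 0.02 (mean 0.26, 95% interval -0.19 to 0.71). In both Foxp2 and Foxp4 the male array had the larger ratio. Foxp3, the factor of regulatory T cells, had 0.07 and -0.18 (mean -0.05), with raw signals from 96.3 to 192. Of the 4 T cell markers Il2ra and Ctla4 were not measured, and summed intensities of the other 2 were 1529 and 1735 in the Rbpj-cKO and 1587 and 1549 in the control channels, male first. The list of regulatory T cell and thymus genes had 13 of 17 measured, none past the test and a median of 0.07, with the kinase Lck highest at 0.34 and the costimulatory receptor Cd28 lowest at -0.34.

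Probes of 1 gene repeated each other in some genes and not in others. Among 6 genes with at least 2 measured probes, Foxo1 gave 0.22 and 0.08 at its brighter probe but -0.07 and 0.70 at the other. Foxp2 gave -0.55 and -0.03 at its brighter probe and -0.05 and -0.46 at the other, so each array had the larger ratio at a different probe. Foxn3 repeated its pattern, with 0.45 and -0.31 at 1 probe and 0.34 and -0.24 at the other. Foxp4 repeated its values of 0.50 and 0.02 with 0.46 and 0.07 at a probe that shares 54 bases with it, while another, dim probe gave 0.18 and -0.10. The 3 Foxp1 probes gave -0.08 and 0.04, -0.36 and 0.25, and -0.07 and -0.29, male first in each pair.

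**Figure D3:**
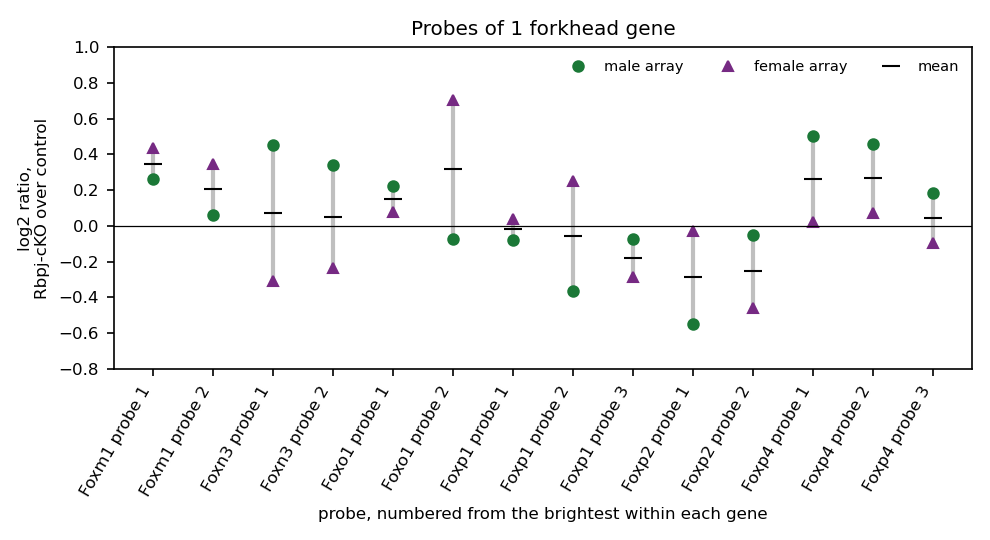
Log2 ratio of Rbpj-cKO over control (y axis) on the male (circles) and female (triangles) array, with their mean (bar), for each measured probe (x axis) of the 6 forkhead genes with at least 2 of them. The 2 Foxo1 probes differ on the female array (0.08 and 0.70), and the 2 Foxn3 probes have the same sign on each array.

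Foxl2, a factor of the ovary and pituitary, was measured at 1 of 2 overlapping probes. The probe at chr9:98856894-98856950 (mm9, plus strand) had normalised log2 intensities of 13.70 and 13.46 in Rbpj-cKO and 13.74 and 13.73 in control RNA, male first. Its log2 ratios were -0.04 and -0.27 (mean -0.15, adjusted p = 1). The probe at chr9:98856846-98856905 was in no channel well above background, with log2 intensities from 7.13 to 7.17. The bright probe has a GC content of 81.7% with 7 CCG triplets, and its longest run shared with a probe of another feature was 20 bases, above all other forkhead probes. The coordinates of the bright probe span fewer bases than the 60 of a probe, so they do not account for its whole length. Neither probe of the opposite-strand transcript Foxl2os was well above background. The ratio of Foxl2 is uncertain for these reasons, and which probe follows its transcript was not tested. The 30 bases around the overlap are shown, with the 12 shared bases in capitals, because these probes of 1 gene disagree.
Foxl2, bright probe, first 30 bases: ttcGCCTGGGGGGCCctcctgccgcaccac
Foxl2, probe not above background, last 30 bases: tcgtgaactcctacaacgGCCTGGGGGGCC

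Of the other measured members, Foxs1 and Foxj3 had the lowest ratios after Foxd1, and the rest had means between -0.12 and 0.07. Foxj1, the master factor of motile cilia, had dim signals from 97.9 to 186 and a log2 ratio of -0.04 on each array, and its mean turned to 0.09 with Agilent's processed signals. Its list of cilia genes had 19 of 26 measured, none past the test and a median of 0.07, with Rsph9 highest at 0.45 and Tppp3 lowest at -0.47. Of the 6 multiciliated cell markers Dnah5 was not measured, and the summed intensity of the other 5 was 12735 and 12607 in the Rbpj-cKO and 11686 and 11350 in the control channels. Foxj3, a relative known in muscle and germ cells, had -0.41 and -0.16 (mean -0.29, 95% interval -0.72 to 0.14). Foxs1, seen in neural crest derivatives and perivascular cells, had -0.22 and -0.37 (mean -0.30, 95% interval -0.72 to 0.13). Both had Rbpj-cKO levels below control levels without overlap, where 27.4% of all features did not overlap, and an adjusted p of 1. Of the smooth muscle markers all 5 were lower on both arrays, where 4132 of 20989 features were, and none passed the limma test. Their median log2 ratio was -0.36, and summed intensities were 519094 and 515425 in the Rbpj-cKO and 632242 and 569079 in the control channels. Their part in these values was not tested.

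Foxk1 and Foxk2, repressors tied to metabolism, had means of -0.12 and -0.02, and Foxn2 and Foxn3, broadly expressed members, had 0.00 and 0.07. The sign of Foxk2 and of Foxn2 changed with the scaling. Foxh1, the Smad partner of Nodal signalling, had -0.05, the intercalated cell factor Foxi1 had 0.00 (its sign turned with Agilent's processed signals) and the skin appendage factor Foxi3 had -0.12. None of these 7 differed from 0 by the limma test (adjusted p = 1), and their 95% interval bounds ran from -0.55 (Foxi3) to 0.56 (Foxn3). Endothelial genes known for forkhead and ETS sites had 17 of 21 measured, none past the test, a median of -0.04, Notch4 highest at 0.31 and the angiopoietin receptor Tek lowest at -0.41. Of the 33 forkhead cofactors and regulators, all measured, none passed. Their median was 0.02, and the corepressors Tle1 at 0.37 and Tle4 at -0.20 were the highest and lowest. Renal and ureteric stroma markers without Foxd1 had all 28 measured, none past the test and a median of 0.07, with Bmp4 highest at 0.57 and the matrix protein gene Dpt lowest at -1.05 (-0.20 and -1.90).

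**Figure D4:**
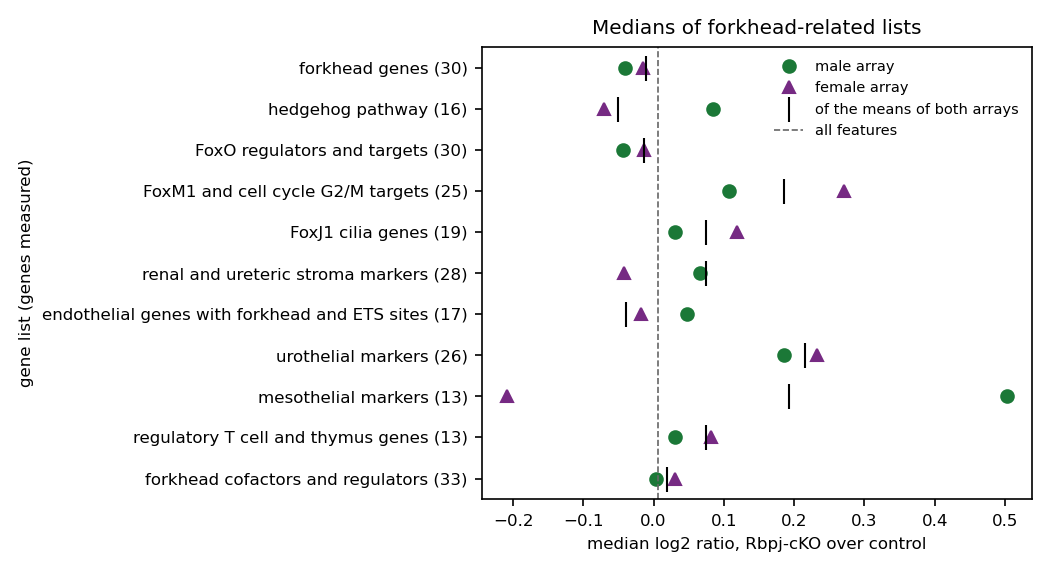
Median log2 ratio of Rbpj-cKO over control (x axis) of the forkhead genes and 10 related lists (y axis, genes measured in parentheses), on the male array (circles), the female array (triangles) and over the means of both (bars), with all features as a dashed line. The forkhead median of -0.01 lies close to that of all features, and mesothelial genes differ most between arrays (0.50 and -0.21).

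A total of 14 forkhead genes could not be compared. In no channel of either array were 11 of them well above background, among them Foxb1, Foxi2, Foxo4 and Foxr1. They also include regional factors of other organs, such as Foxn1 of the thymus, Foxe1 of the thyroid and Foxe3 of the lens. Foxa2, Foxd4 and Foxj2 were well above background in 1 or 2 channels. All 30 measured genes were well above background in all 4 channels, so none entered the comparison through 1 group.

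The arrays gave the same sign for 20 of the 30 forkhead genes, 12 lower and 8 higher in Rbpj-cKO ureters. This was 66.7% of the forkhead genes, beside 41.4% of all features. Levels of the groups did not overlap for 15 of the 30, where 27.4% of all features did not overlap. The median difference between arrays, without its sign, was 0.21 for the forkhead genes and 0.28 for all features. These shares are a description, and the difference from all features was not tested.

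**Figure D5:**
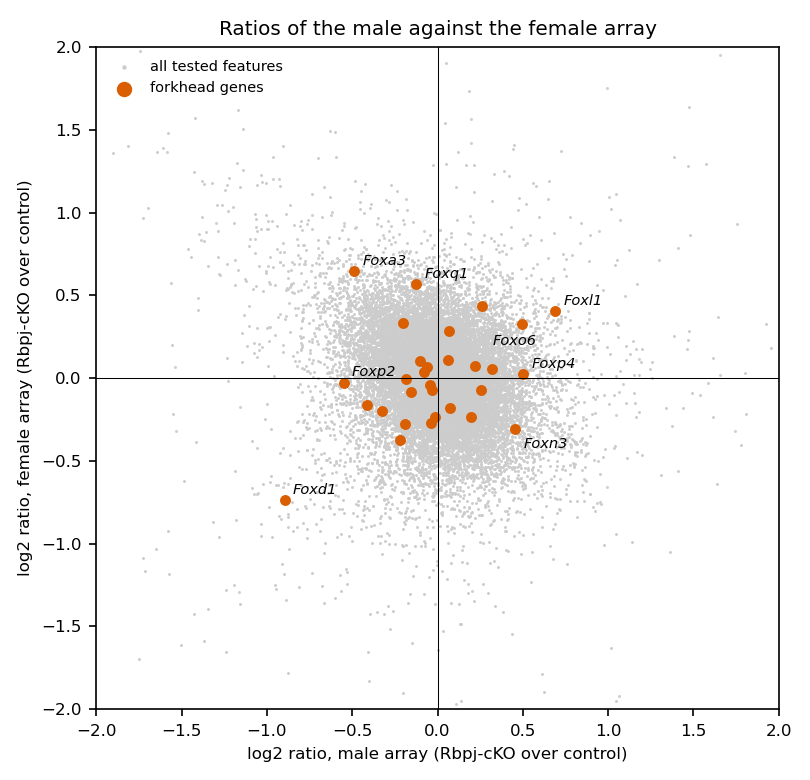
Log2 ratio on the female array (y axis) against the male array (x axis) for the 20989 tested features (grey) and the 30 forkhead genes (orange), both as Rbpj-cKO over control; 32 features lie beyond the axes. Foxd1 lies at -0.90 and -0.74, away from the other forkhead genes, and Foxa3 and Foxn3 have opposite signs on the arrays.

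Promoter windows of 250 bases upstream of a RefSeq start (GRCm38.p6) were found for 28 of the 44 genes, in 33 windows. The core of the Rbpj binding site, GTGGGAA on either strand, occurred in 1 of the 33 (3.03%) and in 5.42% of all 32851 windows. That window belongs to Foxi1, whose mean log2 ratio was 0.00, and the window of Foxd1 holds none. The forkhead core TGTTTAC occurred in 3.03% of forkhead and 3.17% of all windows, in the former at Foxa1. The GLI core GACCACC, the letters bound by hedgehog effectors, occurred in none of the 33 and in 2.34% of all windows. The median GC content was 62% in forkhead and 52.4% in all windows, and the shares are not adjusted for it. A match is a run of letters and not a binding site, and no match says only that these letters are not in this window. The 2 windows are shown so that the gene with the match and the gene with the lowest ratio can be compared, with the match in capitals. They lie at chr11:34208090-34208339 (minus strand) and chr13:98353995-98354244 (plus strand).
Foxi1, 250 bases upstream: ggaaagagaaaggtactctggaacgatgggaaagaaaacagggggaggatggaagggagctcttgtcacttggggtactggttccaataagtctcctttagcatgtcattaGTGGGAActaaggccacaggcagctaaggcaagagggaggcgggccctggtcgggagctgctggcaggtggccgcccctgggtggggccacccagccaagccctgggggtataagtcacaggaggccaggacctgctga
Foxd1, 250 bases upstream: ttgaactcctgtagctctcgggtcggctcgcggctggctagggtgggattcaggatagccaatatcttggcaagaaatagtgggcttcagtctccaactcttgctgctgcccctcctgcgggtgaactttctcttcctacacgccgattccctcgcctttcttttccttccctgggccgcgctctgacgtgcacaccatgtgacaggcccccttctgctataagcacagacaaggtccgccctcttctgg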

How the data were processed

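The 2 arrays were deposited as scanner output of Agilent Feature Extraction 10.7.3.1, the tool named in the submitters' processing notes. Mean and background signals are, per the file headers, raw intensity, while processed signals are intensity after background subtraction, detrending and dye normalization. The authors' value table was treated as a score, since no header or label states how it was made, and it followed the processed signals as a signed fold.

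Mean signals were corrected with normexp (offset 50) and loess, with control spots at weight 0 and outlier spots (200 and 274) left out. Ratios were turned to Rbpj-cKO over control. Channel levels were set with Aquantile. Probes were kept where well above background on both arrays in 1 group, and the brightest probe stood for a gene. Symbols came from RefSeq accessions (26412 of 39429 probes). The two-sided limma test (version 3.58.1, R 4.3.3) used lmFit and then eBayes, with 10.3 prior and 1 residual degrees of freedom. The step was also run on simulated data with an equal spread for all features. Changes as small as those of the forkhead genes were not simulated. A common slide and scan left no batch to test.

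Members and lists were chosen with earlier results of these data known. Forkhead genes could be named whatever their values, some items are not reported here, and of each list the highest and lowest member. Set against alternatives were the offset, signal, normalization, filter, probe summary, prior variance, value table and each array alone.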

Additional observations from a re-analysis of the deposited data

Results flagged for a closer look

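For 10 of the 30 forkhead genes the male and the female array, 1 of each sex, had log2 ratios of opposite sign. The difference between the arrays was not tested, and sex, dye orientation and single RNA samples cannot be told apart. The male minus the female ratio was -1.13 for Foxa3, 0.76 for Foxn3, -0.69 for Foxq1 and -0.54 for Foxc2. It was 0.43 for Foxk2, 0.32 for Foxo3 and 0.25 for Foxp3. It was -0.20 for Foxn2, -0.13 for Foxi1 and -0.11 for Foxp1. Over all features the signs were opposite for 12303 of 20989.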

How the results depend on the processing

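No forkhead gene and no list member passed under any of the 8 alternatives that gave a test, while the count over all features moved. It was 27 as reported, 0 with Agilent's processed signals, with median centring, without a filter or with the series value table, 10 when probes of a gene were averaged and 41 with an intensity trend. The adjusted p of Foxd1 ranged from 0.156 to 1 over these alternatives. Its log2 ratio ranged from -0.82 to -0.76 and that of Foxl1 from 0.55 to 0.61. Of the 30 signs, 25 held under all 8. The filter settings and the intensity trend left the reported ratios as they were, so no sign could turn under them. The value table repeated the processed signals. With Agilent's processed signals and with the value table the means were -0.081 for Foxi1, 0.089 for Foxj1 and 0.055 for Foxk2, against 0.00, -0.04 and -0.02 as reported. With median centring they were 0.053 for Foxk2, 0.063 for Foxn2 and 0.037 for Foxp1, and with offset 10 Foxn2 was at 0.001. The cause was not tested. The median of the forkhead genes was 0.046 without a filter (44 genes). With median centring the list medians of hedgehog (0.012), FoxO (0.041) and endothelial genes (0.008) turned above 0. The median of all features lay between 0.00 and 0.04 throughout. With 1 array left out there is a value and no test. Each ratio already pairs the groups within an array, so no further replicate block could be fitted. Signal over background limits Foxa3, Foxf2, Foxh1, Foxi3, Foxj1 and Foxp3.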

Other observations

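A further 11 probes are described in the files as forkhead transcripts but carry only a transcript or locus identifier as a name, so the rule leaves them out. Of these, 4 were well above background in all 4 channels. A further Foxp1 probe on chromosome 6 at 98956679 to 98956738 (mm9) had log2 ratios of 0.21 (male array) and -0.43 (female array). Foxp2 had 2 further probes, with 0.09 and -0.10 at the first and -0.02 and -0.09 at the second. A further Foxo3 probe had 0.02 and -0.30, beside 0.25 and -0.07 at the named probe.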
